A study of Mus musculus with 6 samples.

Results

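The mitochondrial carrier family was examined in polyA RNA of fat labelled epididymal white adipose tissue from mice. Its members here are the genes of the deposited table whose symbol is Slc25a followed by a number, 41 of 14291 genes. RefSeq lists 47 such symbols for the mouse assembly GRCm38.p6, and the other 6 (Slc25a2, Slc25a18, Slc25a21, Slc25a31, Slc25a41 and Slc25a54) have no row in the table, which holds no gene of very low count. The symbol rule does not take the uncoupling proteins Ucp1 to Ucp3, which belong to the same protein family under other names. Libraries of 2 genotypes were compared, 3 each: wild type, described as carrying floxed Prmt5 alleles, and Prmt5 knockout, written Prmt5AKO in the series' design. The Prmt5 protein is an arginine methyltransferase whose symmetric marks are laid on histones and on splicing factors. The labels give no Cre driver, age, sex or number of animals, and do not say that the libraries of a genotype came from separate animals. The p-values here speak only of the variation among the libraries, and that may be technical.

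Mitochondrial carriers are small proteins of the inner mitochondrial membrane, built from repeats of a pair of membrane helices, that exchange metabolites, nucleotides and cofactors between the matrix and the cytosol. In fat they link the Krebs cycle to lipid synthesis, by citrate and malate export, and to fatty acid oxidation, by acylcarnitine import. The ADP/ATP and phosphate carriers supply the ATP synthase, and the uncoupling protein of brown fat is a member that passes protons. In whole tissue, fewer cells of a type and less RNA per cell cannot be told apart.

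Total counts per library ran from 17489530 to 26403882. The first principal component of log2 CPM (CPM, counts scaled to library size with edgeR's TMM factors) held 61.8% of the variance and did not follow genotype: wild-type replicates 1 and 3 and knockout replicate 1 lay at one end, with wild-type replicate 2 and knockout replicates 2 and 3 at the other. The deposited p-values were matched by an edgeR quasi-likelihood fit with a term that parts replicate 1 of both genotypes from replicates 2 and 3. The name of the deposited sheet holds the word batch, so that term is called a batch here, and the log2 fold changes below, of knockout relative to wild type, are from this batch-term fit. Prmt5 averaged 46.1 ± 12.1 CPM over the wild-type libraries and 21.9 ± 6.88 CPM over the knockout libraries (SD, n = 3 each), with no overlap between the genotypes (log2 fold change -1.10, SE 0.24, adjusted p = 0.0913, edgeR). All 7 white adipocyte markers listed have a row in the table. They summed to 36210 to 50240 CPM in wild type and 25790 to 37500 CPM in knockout, with 3 log2 fold changes above 0 and 4 below. The 8 skeletal muscle markers listed also have a row, and their summed level ran from 143.9 to 2457 CPM in wild type and from 367.1 to 1807 CPM in knockout. Acta1 alone held 140.1 of the 143.9 CPM in wild-type replicate 2, where Ckm was at 0.156 CPM. In knockout replicate 2 it held 1007 of 1080 CPM. The 6 epididymis, 6 testis and sperm and 4 Y-linked transcripts listed have no row in the table. The third-highest CPM of every gene there was at least 0.606, so a transcript found in fewer than 3 libraries could be missing. Xist, transcribed from the inactive X chromosome of female cells, stood at 958.1, 106.1 and 509.7 CPM in wild type and, in knockout, at 1044, 45.6 and 47.2 CPM. Its presence in every library does not go with tissue of male animals alone. Its 3 highest libraries were those at one end of the first principal component, and the sex behind single libraries was not settled.

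The promoters of Slc25a1, Slc25a3, Slc25a4 and Slc25a5 are shown first because these 4 genes held 62.8% of the family's summed transcript level per length. Each line is the RefSeq window of GRCm38.p6 from 250 bases before to 50 bases after the annotated start, 5′ to 3′ on the strand of the gene. Capitals mark the motifs searched on both strands.
Slc25a1, citrate carrier, chr16:17928170-17928469, minus strand: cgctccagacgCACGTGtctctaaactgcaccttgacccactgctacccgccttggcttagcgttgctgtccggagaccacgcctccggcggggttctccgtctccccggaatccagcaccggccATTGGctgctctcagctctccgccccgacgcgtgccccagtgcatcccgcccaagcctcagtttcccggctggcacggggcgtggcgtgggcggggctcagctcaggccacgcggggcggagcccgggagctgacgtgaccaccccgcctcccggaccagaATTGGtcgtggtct
Slc25a3, phosphate carrier, chr10:91123918-91124217, minus strand: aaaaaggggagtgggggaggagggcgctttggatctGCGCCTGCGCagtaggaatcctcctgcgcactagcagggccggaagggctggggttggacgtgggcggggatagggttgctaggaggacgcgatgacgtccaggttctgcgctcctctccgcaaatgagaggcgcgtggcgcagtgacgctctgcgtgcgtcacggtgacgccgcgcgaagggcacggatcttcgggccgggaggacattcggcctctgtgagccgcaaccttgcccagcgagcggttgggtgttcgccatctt
Slc25a4, ADP/ATP carrier, chr8:46211013-46211312, minus strand: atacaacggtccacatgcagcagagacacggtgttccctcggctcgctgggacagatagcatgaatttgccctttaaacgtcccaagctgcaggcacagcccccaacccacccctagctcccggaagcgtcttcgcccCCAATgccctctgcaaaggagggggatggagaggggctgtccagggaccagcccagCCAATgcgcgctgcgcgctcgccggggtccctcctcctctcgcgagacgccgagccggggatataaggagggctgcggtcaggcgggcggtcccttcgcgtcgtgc
Slc25a5, ADP/ATP carrier, chrX:36795347-36795646, plus strand: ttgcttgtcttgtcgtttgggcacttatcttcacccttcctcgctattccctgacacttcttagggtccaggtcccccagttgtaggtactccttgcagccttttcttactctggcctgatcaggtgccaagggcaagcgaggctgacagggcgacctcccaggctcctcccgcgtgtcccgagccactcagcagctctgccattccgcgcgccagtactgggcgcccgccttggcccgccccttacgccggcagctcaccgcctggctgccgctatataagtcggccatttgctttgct
The motifs were the NRF1 site, the oestrogen-related receptor site TCAAGGTCA, the sterol element TCACNCCAC, the E-box CACGTG and CCAAT, and no one of the spelled motifs holds another. The capitals in Slc25a1 are an E-box and a pair of CCAAT boxes read on the other strand, those in Slc25a3 an NRF1 site and those in Slc25a4 a pair of CCAAT boxes, while the Slc25a5 window held none of the 5. Of 32 measured carriers with a window, 18 (56.2%) held CCAAT, against 41.1% of 27025 genes with a window. An E-box was held by 6 carriers (18.8%, against 8.09% of genes), an NRF1 site by 1 (3.12%, against 5.19%), and the other 2 motifs by 0 carriers (against 0.466% and 1.44% of genes). These are matches of letters, and no binding was measured.

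Per kilobase of exon, the carrier transcripts covered a wide range and a few of them made up most of the total. RPKM values computed here from the counts, the TMM factors and the deposited exonic lengths put Slc25a1 first with a mean of 588.1 over the 6 libraries, followed by Slc25a3 with 342.9, Slc25a4 with 328.9, Slc25a5 with 290.6, the glutathione carrier gene Slc25a39 with 220.0 and the dicarboxylate carrier gene Slc25a10 with 119.6. The order among the first 4 was not the same in every library: Slc25a4 was first in wild-type replicate 1, at 303.5 RPKM against 269.6 for Slc25a1, and Slc25a1 was first in the other 5 libraries. The 2 lowest carriers, Slc25a43 and Slc25a48, had mean CPM values under 1, and the least count of any carrier in a library was 3 reads. The summed RPKM of the 41 carriers was 1733, 2654 and 2310 in replicates 1 to 3 of wild type and 1867, 2837 and 3411 in knockout replicates 1 to 3. The genotypes overlapped, and replicate 1 had the lowest sum in both (means 2232 ± 465.4 and 2705 ± 780.3, exact two-sided permutation p = 0.4, where 3 against 3 cannot go below 0.1).

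None of the 41 carriers passed an adjusted p under 0.05 over all genes in either direction (edgeR, quasi-likelihood F test, p-values adjusted by Benjamini-Hochberg). Over all genes 0.504% did, 0.385% higher and 0.119% lower in the knockout. At an unadjusted p under 0.05, 5 carriers stood higher and 7 lower in the knockout, 12 of 41 or 29.3%, against 24.5% of all genes (12.1% higher and 12.4% lower). The genotypes did not overlap for 3 carriers (7.32%, against 14.5% of all genes), 1 with the knockout above (8.32% of all genes) and 2 with it below (6.2% of all genes). The median log2 fold change was 0.04 over the carriers and -0.05 over all genes, with 22 carriers above 0 and 19 below. With genotype as the only term 0 carriers passed (over all genes 0.0%), and an unadjusted p under 0.05 was met by 2 higher and 0 lower (8.63% of all genes, 5.26% higher and 3.37% lower). DESeq2 with the batch term called 4 of the 39 carriers to which it gave an adjusted p (10.3%, against 11.4% of all such genes), 2 higher, among them Slc25a28, and 2 lower, Slc25a16 and Slc25a40. Carriers called by limma-voom were 0, where over all 14291 genes it called 56 higher and 14 lower. At an adjusted p under 0.1 in the edgeR fit stood 1 carrier (2.44%), against 2.63% of all genes. None of these shares stood far above that of all genes, and the values below describe single carriers that did not pass the edgeR test.

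**Figure D1:**
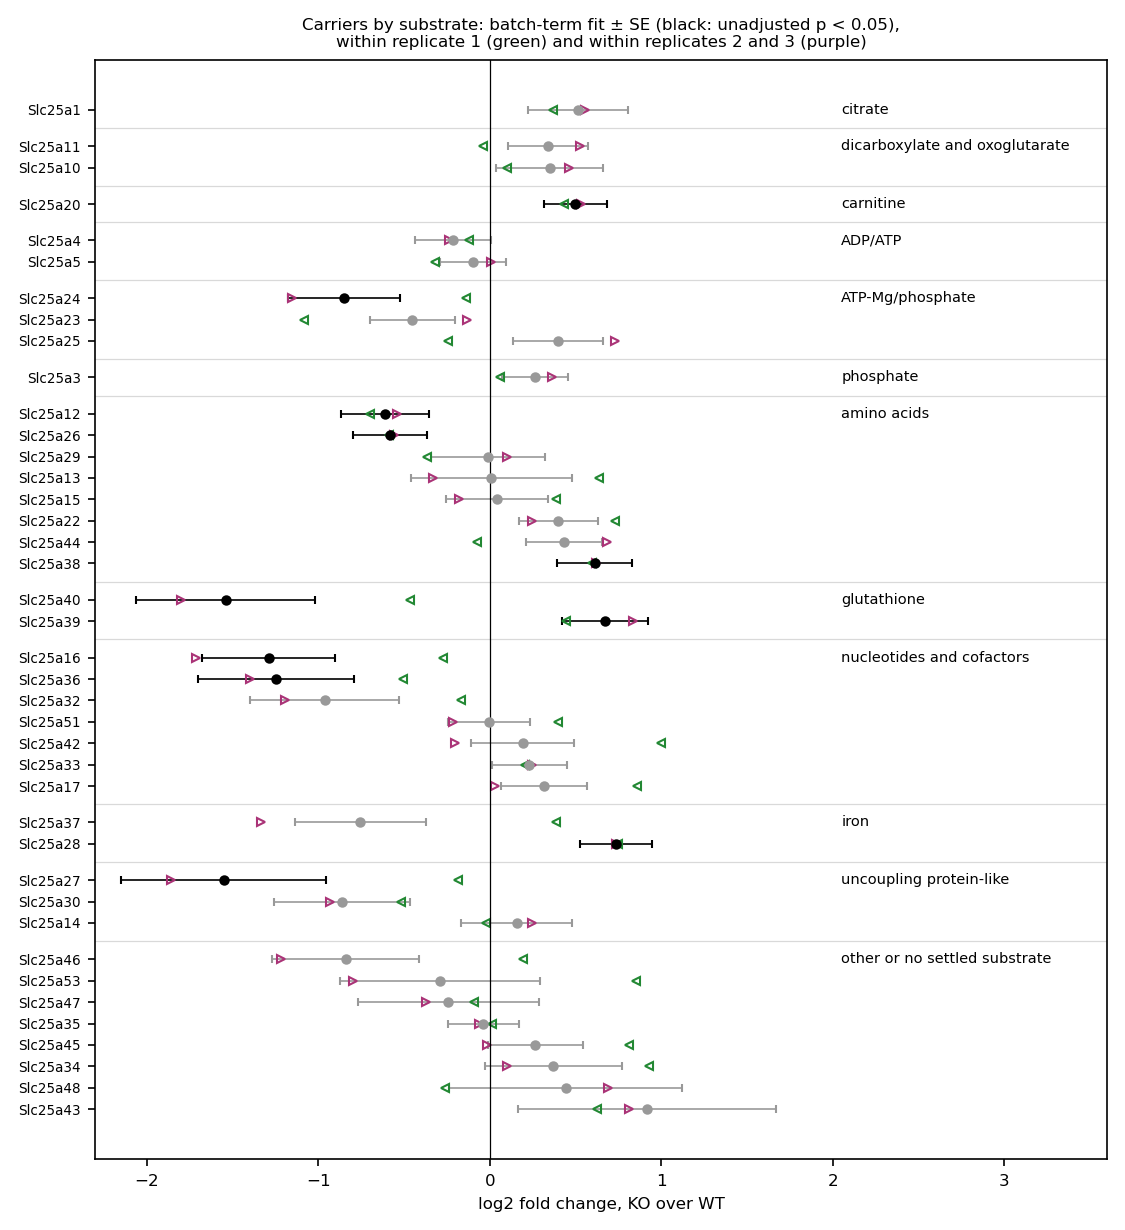
Log2 fold change of 40 of the 41 carriers, knockout over wild type, by substrate group, with the standard error of the batch-term fit (circles, black at an unadjusted p under 0.05) and the differences within replicate 1 (green) and within replicates 2 and 3 (purple). Values run from -1.55 for Slc25a27 to 0.92 for Slc25a43, and over all 41 carriers the 2 within-batch values had the same sign for 25.

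The citrate carrier gene Slc25a1 (chromosome 16, 17925211 to 17928219, mm10), whose product exports the citrate from which fatty acids and sterols are made, varied more within each genotype than between them. Wild-type replicates 1 to 3 held 452.3, 1184 and 767.8 CPM, and knockout replicates 1 to 3 held 584.4, 1039 and 1894 CPM. Replicate 1 was lowest in both genotypes, knockout replicate 3 was highest, and the groups overlapped (801.2 ± 366.7 and 1173 ± 664.8 CPM, log2 fold change 0.52, SE 0.29, adjusted p = 0.283, edgeR). Without knockout replicate 3 the log2 fold change was 0.21, without wild-type replicate 3 it was 0.32, and with offsets against the trends with transcript length and GC content in each library it was 0.08. Slc25a10, which exchanges malate and succinate for phosphate, had the same order of libraries at 284.6, 608.6 and 346.4 CPM in wild type and, in knockout, 304.7, 460.7 and 866.1 CPM (0.35, SE 0.31, adjusted p = 0.476, edgeR). Its log2 fold change was 0.0129 without knockout replicate 3, 0.0965 without wild-type replicate 3 and 0.13 with the offsets. The oxoglutarate carrier gene Slc25a11, whose product works in the malate-aspartate shuttle, stood at 80.9, 142.9 and 110.2 CPM in wild type, and the knockout libraries at 78.8, 156.7 and 208.4 CPM (0.34, SE 0.23, adjusted p = 0.355, edgeR). It was 0.16 and 0.17 without those same libraries and 0.0603 with the offsets. In all 3 genes knockout replicate 3 was the highest library and replicate 1 of both genotypes the lowest pair.

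Slc25a20, the carnitine-acylcarnitine translocase that brings long-chain acyl groups to matrix beta-oxidation, was the single carrier whose knockout libraries all stood above the wild-type libraries. It measured 79.3, 106.6 and 92.1 CPM in wild type and, in knockout, 106.9, 149.0 and 138.4 CPM. The gap was narrow: knockout replicate 1 lay at 106.9 CPM, against 106.6 CPM in wild-type replicate 2. The means were 92.7 ± 13.7 and 131.5 ± 21.9 CPM, a ratio of 1.42 (log2 fold change 0.50, SE 0.19, unadjusted p = 0.0274, adjusted p = 0.176, edgeR). The difference was 0.43 within replicate 1 and 0.53 within replicates 2 and 3, it ran from 0.42 to 0.55 with a library left out, and it was 0.51 with length and GC offsets. Of 6 tested enzymes and transporters of the carnitine shuttle, 0 passed over all genes. Cpt2, the transferase on the matrix side of the inner membrane, stood at 128.0 ± 22.7 and 209.0 ± 54.3 CPM (0.67, adjusted p = 0.167, edgeR), and the acyl-CoA synthetase gene Acsl1 at 1956 ± 844.1 and 1078 ± 399.9 CPM (-0.84, adjusted p = 0.112, edgeR, and -0.39 with the offsets).

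**Figure D2:**
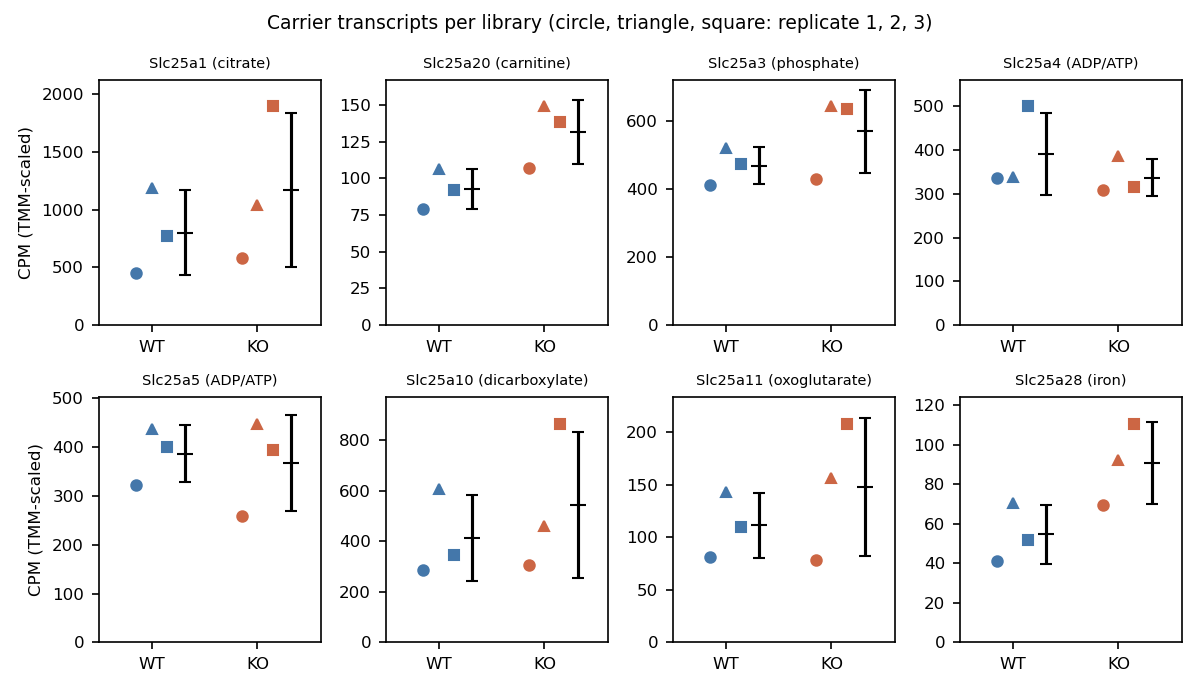
TMM-scaled CPM of 8 carriers in each library, with the mean and SD of each genotype beside the points (n = 3 each). The 3 knockout values of Slc25a20 lie above the 3 wild-type values, and those of the other 7 carriers overlap with wild type.

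The ADP/ATP carriers, which exchange matrix ATP for cytosolic ADP, did not differ between genotypes beyond the spread of the libraries. Slc25a4, the form typical of heart and muscle, stood at 335.7, 338.5 and 499.4 CPM in wild type, and the knockout libraries at 308.7, 384.9 and 315.3 CPM (log2 fold change -0.21, SE 0.22, adjusted p = 0.538, edgeR). Wild-type replicate 3, its highest library, also had the highest summed level of skeletal muscle markers, 2457 CPM. Knockout replicate 3, next in those markers at 1807 CPM, held 315.3 CPM of Slc25a4. Wild-type replicate 2, lowest in them at 143.9 CPM, held 338.5 CPM. Single muscle markers ranked these libraries differently. Acta1 was highest in knockout replicate 3, at 1216 CPM against 983.2 CPM in wild-type replicate 3. Ckm was highest in wild-type replicate 3, at 194.2 CPM against 111.3 CPM in knockout replicate 3. The part of muscle in the Slc25a4 values was not tested. Without wild-type replicate 3 the log2 fold change of Slc25a4 was -0.04, and with length and GC offsets it was -0.54 (unadjusted p = 0.0633, adjusted p = 0.238, edgeR). Slc25a5, the form of most growing tissues, stood at 322.3, 436.7 and 398.9 CPM in wild type, and the knockout libraries at 258.3, 447.7 and 393.9 CPM (-0.10, SE 0.19, adjusted p = 0.752, edgeR). RefSeq lists a separate gene, Gm5560, under the older name Slc25a5, and the sources used here do not give how reads shared with such copies were counted. The 2 forms were close in level per length, Slc25a4 taking 54.0% ± 5.99 of their summed RPKM in wild type and 52.3% ± 5.30 in knockout (exact permutation p = 0.8).

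Slc25a3, the phosphate carrier that feeds the ATP synthase, stood at 410.8, 519.7 and 473.6 CPM in wild type, and the knockout libraries at 428.1, 642.7 and 635.8 CPM. Knockout replicates 2 and 3 exceeded every wild-type library and knockout replicate 1 did not (log2 fold change 0.26, SE 0.19, adjusted p = 0.384, edgeR, and 0.49 with the offsets). Among the calcium-regulated ATP-Mg/phosphate carriers, Slc25a23 stood at 150.4, 153.9 and 128.8 CPM in wild type, and the knockout libraries at 70.7, 125.8 and 131.1 CPM, so that its difference rested largely on knockout replicate 1. Its log2 fold change was -0.45 (SE 0.25, adjusted p = 0.272, edgeR), -1.09 within replicate 1 and -0.13 within replicates 2 and 3. Slc25a24 stood at 30.1, 18.2 and 30.8 CPM in wild type, and the knockout libraries at 27.4, 12.2 and 9.10 CPM (-0.85, SE 0.33, unadjusted p = 0.0317, adjusted p = 0.18, edgeR). The value was -0.52 without wild-type replicate 3 and -0.30 with the offsets. Slc25a25, the third of them, stood at 78.0 ± 13.0 and 106.3 ± 32.3 CPM (0.40, adjusted p = 0.343, edgeR, 0.69 without knockout replicate 1 and 0.16 without wild-type replicate 3). It overlaps exons of Naif1 on the opposite strand over 404 bases, and the sources used here give no strand setting for the counting.

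Among 8 measured amino acid carriers, 5 lay above 0 and 3 below. The knockout libraries all stood below wild type for 2 of the 41 carriers, Slc25a12 and Slc25a26, against 6.2% of all genes. Both are counted in this group, though Slc25a26 could also be placed with the cofactor carriers. The aspartate-glutamate carrier gene Slc25a12, also called aralar, stood at 25.03, 19.6 and 29.8 CPM in wild type, and the knockout libraries at 15.3, 14.03 and 19.4 CPM. The gap was narrow, between wild-type replicate 2 and knockout replicate 3 (log2 fold change -0.61, SE 0.26, unadjusted p = 0.0441, adjusted p = 0.197, edgeR, and -0.35 with the offsets). Slc25a26, which imports the methyl donor S-adenosylmethionine, the cosubstrate of arginine methyltransferases, stood at 21.7, 33.3 and 25.6 CPM in wild type, and the knockout libraries at 14.4, 20.3 and 19.2 CPM. Its ratio of wild type to knockout was 1.495, and the difference was -0.59 within replicate 1 and -0.56 within replicates 2 and 3 (-0.58, SE 0.21, unadjusted p = 0.0261, adjusted p = 0.173, edgeR). With length and GC offsets it was -0.65 (adjusted p = 0.0752, edgeR), and with a library left out it ran from -0.70 to -0.47. Its exons overlap those of Lrig1 on the opposite strand over 124 bases.

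The glycine carrier gene Slc25a38, whose product supplies haem synthesis, had the highest log2 fold change of the amino acid carriers. It stood at 15.1, 26.8 and 19.8 CPM in wild type, and the knockout libraries at 22.9, 32.7 and 38.7 CPM, with wild-type replicate 2 above knockout replicate 1 (0.61, SE 0.22, unadjusted p = 0.0235, adjusted p = 0.169, edgeR, and 0.24 with the offsets). Slc25a44, the branched-chain amino acid carrier of brown fat, stood at 80.7, 85.01 and 85.2 CPM in wild type, and the knockout libraries at 76.7, 143.2 and 130.4 CPM, so that its difference lay in knockout replicates 2 and 3 and was -0.07 within replicate 1 (0.43, adjusted p = 0.25, edgeR). The glutamate carrier gene Slc25a22 stood at 71.1 ± 12.4 and 94.6 ± 17.6 CPM (0.40, adjusted p = 0.29, edgeR, and 0.15 with the offsets). The remaining 3 had log2 fold changes between -0.01 and 0.04: Slc25a13, or citrin, at about 2 CPM, the ornithine carrier gene Slc25a15 at 10.8 ± 1.73 and 11.0 ± 2.76 CPM, and the basic amino acid carrier gene Slc25a29 at 8.78 ± 1.73 and 9.05 ± 4.66 CPM.

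The pair of mitochondrial glutathione carriers lay on opposite sides of 0. Slc25a39, by far the more abundant, stood at 152.3, 426.1 and 248.9 CPM in wild type, and the knockout libraries at 207.1, 541.9 and 623.7 CPM (log2 fold change 0.67, SE 0.25, unadjusted p = 0.0273, adjusted p = 0.175, edgeR). Slc25a40 stood at 9.45, 3.97 and 10.5 CPM in wild type, and the knockout libraries at 6.79, 1.91 and 1.48 CPM (-1.54, SE 0.52, unadjusted p = 0.0182, adjusted p = 0.159, edgeR). In both genes the genotypes overlapped, and the libraries low in one were high in the other: wild-type replicates 1 and 3 and knockout replicate 1 held the 3 lowest values of Slc25a39 and the 3 highest of Slc25a40. The Slc25a39 value was 0.26 and the Slc25a40 value -0.82 with length and GC offsets. Without wild-type replicate 3 they were 0.43 and -0.91.

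Among the carriers of nucleotides and cofactors, 3 had log2 fold changes near or below -1 without passing the test. Slc25a16, linked to coenzyme A import, stood at 51.0, 24.3 and 45.7 CPM in wild type, and the knockout libraries at 42.2, 11.4 and 8.75 CPM. Wild-type replicate 2 was low and knockout replicate 1 high among their groups, and the difference was -0.27 within replicate 1 and -1.71 within replicates 2 and 3 (-1.29, SE 0.39, unadjusted p = 0.0107, adjusted p = 0.138, edgeR, and -0.80 with the offsets). Slc25a36, a pyrimidine nucleotide carrier gene, stood at 48.5, 10.9 and 34.5 CPM in wild type, and the knockout libraries at 34.0, 8.79 and 5.93 CPM (-1.25, SE 0.46, unadjusted p = 0.0254, adjusted p = 0.172, edgeR, and -0.57 with the offsets). Slc25a32, the folate and FAD carrier gene, stood at 13.7, 6.23 and 15.3 CPM in wild type, and the knockout libraries at 12.1, 4.78 and 3.56 CPM (-0.96, SE 0.43, adjusted p = 0.212, edgeR, and -0.35 with the offsets). All 3 were highest in wild-type replicates 1 and 3 and knockout replicate 1. Without wild-type replicate 3 their log2 fold changes were -0.86 for Slc25a16, -0.56 for Slc25a36 and -0.42 for Slc25a32.

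A further 4 of these carriers had smaller values. The NAD carrier gene Slc25a51 stood at 145.0 ± 19.3 and 149.1 ± 51.7 CPM, with knockout replicate 1 highest of all libraries at 203.2 CPM and knockout replicate 3 lowest at 100.4 CPM. The coenzyme A carrier gene Slc25a42 was highest in knockout replicate 1, at 63.4 CPM, and lay between 17.8 and 31.6 CPM in the other 5 libraries. Slc25a17, the peroxisomal member of the family, stood at 65.3 ± 12.1 and 81.3 ± 17.7 CPM and the pyrimidine nucleotide carrier gene Slc25a33 at 15.4 ± 4.35 and 18.1 ± 4.88 CPM. The summed RPKM of all 8 nucleotide and cofactor carriers was 147.1, 136.7 and 177.1 in wild type and 201.3, 206.1 and 179.3 in knockout, with no overlap (exact permutation p = 0.1, the smallest 3 against 3 can give, 0.433 with Benjamini-Hochberg adjustment over 13 sums). That sum includes the carrier whose single values are not reported, and without it the genotypes overlapped. The iron and carnitine sums also stood higher in knockout with no overlap and the same p-values, and the remaining sums overlapped.

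The mitoferrins, which import iron for haem and iron-sulphur clusters, also lay on both sides of 0. Slc25a28, or mitoferrin-2, the form of most tissues, stood at 41.5, 70.8 and 51.7 CPM in wild type, and the knockout libraries at 69.7, 92.1 and 110.8 CPM, and wild-type replicate 2 lay just above knockout replicate 1. The log2 fold change was 0.74 (SE 0.21, unadjusted p = 0.00826, adjusted p = 0.129, edgeR), 0.75 within replicate 1, 0.74 within replicates 2 and 3, and 0.44 with length and GC offsets. Slc25a37, or mitoferrin-1, the form of red cell precursors, stood at 30.1, 29.6 and 30.1 CPM in wild type, and the knockout libraries at 39.4, 14.8 and 9.20 CPM, above wild type in knockout replicate 1 and below it in the other 2 (-0.75, SE 0.38, adjusted p = 0.247, edgeR). Its value was -1.34 without knockout replicate 1, -0.39 without knockout replicate 3 and -0.50 with the offsets. The red cell marker Alas2 ran from 38.0 to 166.2 CPM in wild type and from 19.7 to 102.3 CPM in knockout, and was lowest where Slc25a37 was highest. The globin transcripts listed as red cell markers have no row in the table.

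The uncoupling protein-like carriers were scarce. Slc25a27, or UCP4, had the lowest log2 fold change of the family, at 5.81, 2.10 and 4.88 CPM in wild type and, in knockout, 5.08, 0.775 and 0.643 CPM. Knockout replicate 1 lay within the wild-type range, and the other 2 knockout libraries were below it (-1.55, SE 0.60, unadjusted p = 0.0313, adjusted p = 0.18, edgeR, -1.50 with the offsets and -0.96 without wild-type replicate 3). Slc25a30 stood at 5.72 ± 2.84 and 3.38 ± 2.33 CPM (-0.86, adjusted p = 0.22, edgeR, and -0.56 without wild-type replicate 3) and Slc25a14, or UCP5, at 4.70 ± 0.863 and 5.29 ± 1.14 CPM (0.16). The uncoupling proteins and carrier homologues outside the symbol rule, 5 listed genes, had 0 calls (over all genes 0.504%). Among them Ucp2 stood at 374.1 ± 145.4 and 580.1 ± 233.4 CPM (0.60, adjusted p = 0.195, edgeR), Ucp3 at 33.5 ± 12.5 and 22.7 ± 14.6 CPM (-0.70, adjusted p = 0.201, edgeR) and Mtch1 at 264.4 ± 93.3 and 440.6 ± 192.4 CPM (0.66, adjusted p = 0.173, edgeR). With length and GC offsets Ucp2 was 0.26 and Mtch1 0.33, and without wild-type replicate 3 Ucp2 was 0.39, Ucp3 -0.37 and Mtch1 0.43. The brown fat uncoupling protein gene Ucp1 stood at 14.7, 0.273 and 88.1 CPM in wild type, and the knockout libraries at 278.2, 136.2 and 77.1 CPM.

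The 8 carriers of other or unsettled substrate lay between -0.84 and 0.92, with 0 calls and 0 unadjusted p under 0.05. Slc25a46, an outer-membrane member that acts in mitochondrial shape, stood at 69.9, 37.9 and 92.3 CPM in wild type, and the knockout libraries at 79.8, 29.4 and 21.8 CPM (-0.84, SE 0.43, adjusted p = 0.249, edgeR), -0.26 without wild-type replicate 3 and -0.06 with length and GC offsets. Slc25a35, the most level of the group, stood at 30.5 ± 5.55 and 29.7 ± 5.19 CPM (-0.04) and overlaps exons of Rangrf over 32 bases on its opposite strand. Slc25a45 stood at 14.3 ± 3.798 and 16.9 ± 2.54 CPM, and Slc25a34, Slc25a47 and Slc25a53 between 1 and 5 CPM on average. Slc25a43 and Slc25a48 rested on few reads, at 0.43 ± 0.357 and 0.821 ± 0.32 CPM and at 0.543 ± 0.294 and 0.77 ± 0.381 CPM.

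**Figure D3:**
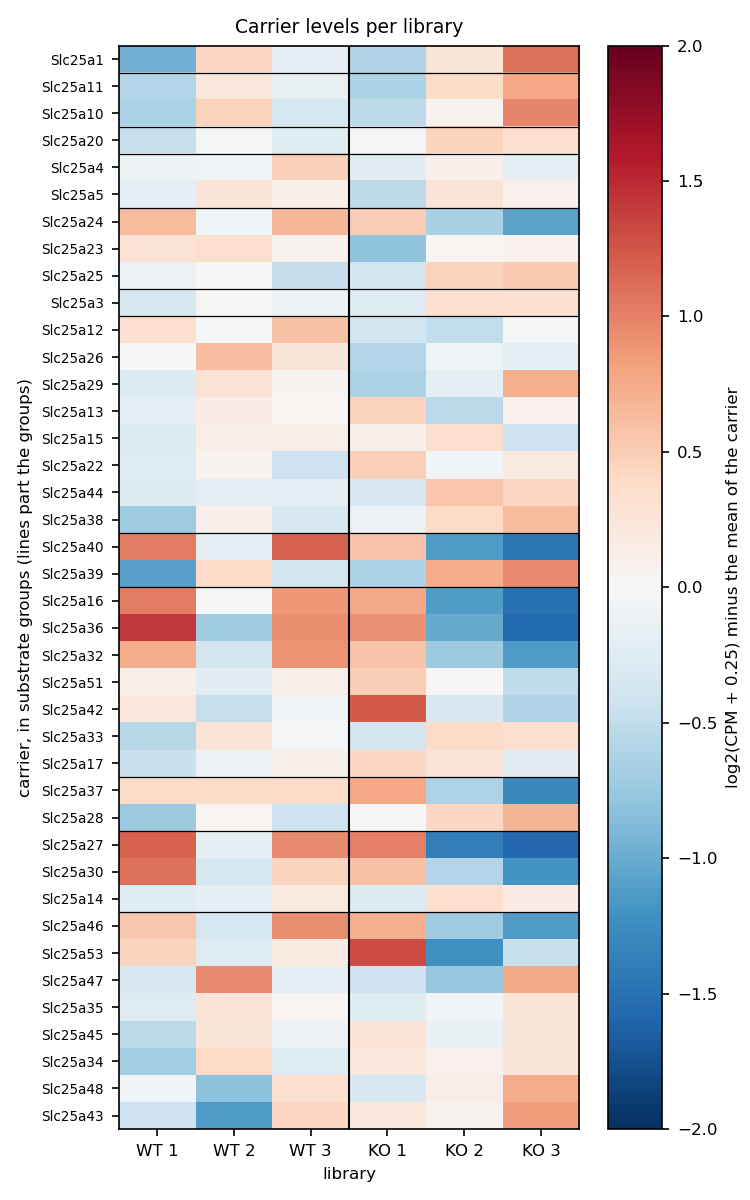
Log2(CPM + 0.25) of 40 of the 41 carriers in each library, minus the mean of the carrier over the 6 libraries, with lines parting the substrate groups and the genotypes. Slc25a16, Slc25a36, Slc25a32, Slc25a40, Slc25a27 and Slc25a46 are high in wild-type replicates 1 and 3 and knockout replicate 1 and low in knockout replicates 2 and 3, while Slc25a39, Slc25a1 and Slc25a38 show the opposite colours.

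Within groups of carriers that move the same substrate, the share of 1 form was compared per length. Slc25a25 took 26.5%, 29.0% and 24.0% of the summed RPKM of the ATP-Mg/phosphate carriers in wild-type replicates 1 to 3 and 35.9%, 41.3% and 42.0% in knockout replicates 1 to 3. The genotypes did not overlap (26.5% ± 2.5 and 39.7% ± 3.31, difference 13.2 percentage points, exact two-sided permutation p = 0.1, the smallest possible, and 0.4 with Benjamini-Hochberg adjustment over 4 shares). Of the 3 genes behind this share, Slc25a25 had a log2 fold change above 0 and Slc25a23 and Slc25a24 had values below 0. In knockout replicate 1 Slc25a25 itself was not raised, at 16.31 RPKM against 15.01 to 20.92 RPKM in wild type. Slc25a23 there was at 21.03 RPKM, against 38.32 to 45.76 RPKM in wild type, so the high share in that library went with low Slc25a23. Slc25a12 made up 94.2%, 90.7% and 94.2% of the aspartate-glutamate carriers in wild type and 85.9%, 92.4% and 91.1% in knockout (exact permutation p = 0.3). Slc25a37 made up 17.4% ± 3.90 of the mitoferrins in wild type and 8.61% ± 7.61 in knockout, with 17.3% in knockout replicate 1 and 5.60% and 2.97% in replicates 2 and 3 (exact permutation p = 0.2). In a pair of shares added after the values were seen, Slc25a40 made up 2.16% ± 1.503 of the glutathione carriers in wild type and 0.745% ± 0.992 in knockout (exact permutation p = 0.2), and Slc25a36 took 52.0% ± 24.3 and 32.6% ± 26.1 of the pyrimidine nucleotide carriers (exact permutation p = 0.4).

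**Figure D4:**
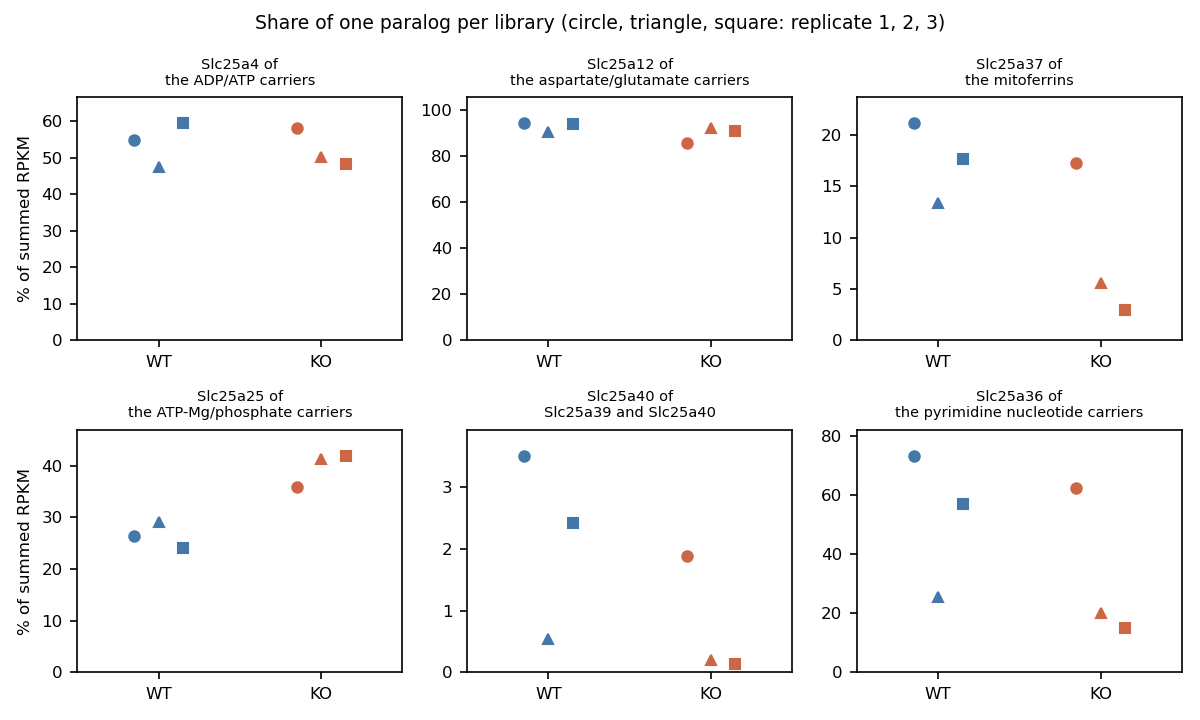
Percent of the summed RPKM of a carrier group that 1 form takes in each library, wild type in blue and knockout in orange. The Slc25a25 shares of the 3 knockout libraries, 35.9% to 42.0%, lie above those of wild type, 24.0% to 29.0%, and the other shares overlap.

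The fold changes of the carriers ran with the base composition of their transcripts. Across the 41 carriers the log2 fold change correlated with the GC content of the longest transcript at Pearson's r = 0.65 (Spearman's rho 0.61) and with log2 exonic length at r = -0.36 (rho -0.35), as a description across genes measured in the same 6 libraries. The 22 carriers above 0 had a median GC content of 54.0% and a median exonic length of 1863.5 bases, against 47.9% and 2924 bases for the 19 below 0. Across all 13786 genes with a known GC content the correlations were 0.46 with GC and -0.25 with length. Once each library's trend with length and GC was removed by offsets, the carriers' r was 0.19 with GC and -0.06 with length, 26 of 41 carriers had a smaller log2 fold change in size and 5 changed sign. The offsets were fitted to these same libraries, so the fall in correlation follows largely from the method. They also remove any difference between genotypes that runs with length or GC. In that fit 0 carriers passed (over all genes 2.27%, 1.41% higher and 0.861% lower). At an unadjusted p under 0.05, 5 carriers stood higher and 6 lower, against 23.3% of all genes (13.9% higher and 9.36% lower).

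**Figure D5:**
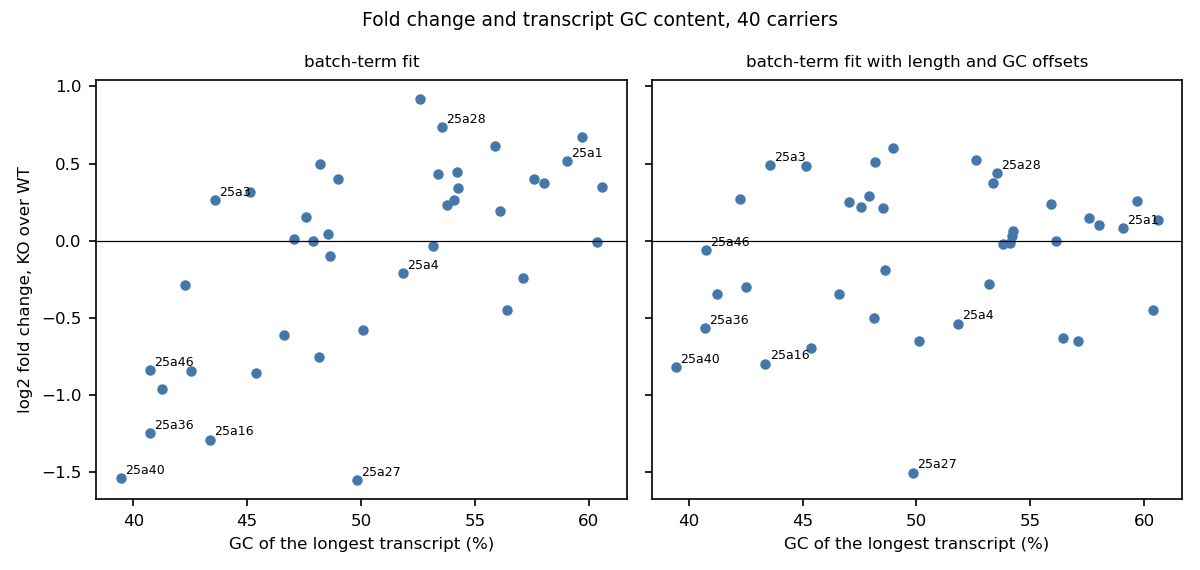
Log2 fold change of 40 of the 41 carriers, knockout over wild type, against the GC content of the longest annotated transcript, without (left) and with (right) offsets for length and GC. On the left the points climb with GC (r = 0.65 over all 41), and on the right they do so less (r = 0.19 over all 41), with Slc25a40 moving from -1.54 to -0.82 and Slc25a1 from 0.52 to 0.08.

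Other nuclear genes of mitochondria lay mostly above 0 without passing the test. Of 22 listed respiratory chain genes 21 lay above 0 (47.6% of all genes did), with 0 calls over all genes, 13 at an unadjusted p under 0.05 higher (over all genes 12.1%) and 0 lower (over all genes 12.4%), and a median of 0.50 (0.32 with length and GC offsets). With genotype as the only term, 0 of these 22 had an unadjusted p under 0.05 higher (5.26% of all genes). The knockout libraries all stood above wild type for 1 of them (8.32% of all genes). Cyc1, the cytochrome c1 gene, stood at 268.4 ± 67.1 and 457.4 ± 177.6 CPM (log2 fold change 0.71, adjusted p = 0.125, edgeR, and 0.15 with the offsets). Cox5b, Ndufs3 and Sdhd were at 0.68, 0.69 and 0.58, and at 0.39, 0.27 and 0.44 with the offsets. In the fit with offsets, 10 of the 22 had an unadjusted p under 0.05 higher (13.9% of all genes) and 0 lower (9.36% of all genes). Of 15 tested genes that import carrier precursors, 13 lay above 0, with 0 calls, 8 at an unadjusted p under 0.05 higher and a median of 0.55 (0.44 with the offsets). With genotype as the only term, 1 of these 15 was higher at that unadjusted p. For 2 of them the knockout libraries all stood above wild type. Tomm40, the import pore, stood at 69.2 ± 12.6 and 123.9 ± 36.2 CPM (0.81, adjusted p = 0.114, edgeR) and Timm10, a chaperone that escorts carriers through the intermembrane space, at 20.6 ± 7.37 and 35.4 ± 9.32 CPM (0.81, adjusted p = 0.108, edgeR). With the offsets Tomm40 was 0.50 and Timm10 0.36. The medians of these lists and that of the carriers, 0.04, were not tested against each other. Brown and beige adipocyte markers summed to 151.4, 176.5 and 370.9 CPM in wild type and to 945.8, 863.0 and 633.0 CPM in knockout without overlap, and their part in the carriers' values was not tested.

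Partners of the carriers in the cytosol and matrix had 0 calls over all genes as well. Of 12 genes for citrate export and the malate-aspartate shuttle, 10 lay above 0 (median 0.19, against 47.6% above 0 and a median of -0.05 over all genes). At an unadjusted p under 0.05, 4 stood higher and 1 lower, against 12.1% and 12.4% of all genes. With genotype as the only term, 2 stood higher and 1 lower, against 5.26% and 3.37% of all genes. The 1 lower was the malic enzyme gene Me1, at 943.9 ± 285.2 and 406.1 ± 48.7 CPM with no overlap (-1.18, SE 0.27, adjusted p = 0.0979, edgeR). Idh2, the matrix isocitrate dehydrogenase gene, stood at 104.9 ± 1.35 and 182.5 ± 36.1 CPM and Aco1, the cytosolic aconitase gene, at 217.2 ± 29.4 and 343.4 ± 71.0 CPM, both without overlap (0.78 and 0.65, adjusted p = 0.11 and 0.165, edgeR). With the offsets Me1 was -0.79, Idh2 0.43 and Aco1 0.69. Of 8 listed partners of the ADP/ATP carriers, 4 stood higher at an unadjusted p under 0.05 (12.1% of all genes) and 0 lower (12.4% of all genes). With genotype as the only term, 2 of these 8 stood higher (5.26% of all genes). Ppif, the cyclophilin that opens the permeability transition pore, stood at 16.1 ± 4.27 and 28.1 ± 7.22 CPM with no overlap (0.81, adjusted p = 0.118, edgeR). The 6 outer membrane channels and pyruvate carrier genes, with Vdac1 at 275.7 ± 57.4 and 346.2 ± 94.4 CPM, had 0 unadjusted p under 0.05 (24.5% of all genes). With the offsets 2 of them stood higher and 1 lower at that threshold, against 13.9% and 9.36% of all genes.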

How the data were processed

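PolyA RNA libraries of 3 wild-type and 3 Prmt5 knockout samples were analysed, and the genotype and replicate were read from the sample titles. TopHat2, the build mm10 and HTSeq 0.6.1 are listed, without role or order, per the submitters' processing notes. The authors deposited raw counts for 14291 genes, together with log2 RPKM and log2 fold change columns, and the deposited p-value columns, raw and adjusted, which served to find the batch term. The third-highest CPM of every gene was at least 0.606, and filterByExpr removed 0 genes.

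The count test was that of edgeR 4.0.16 under R 4.3.3 (TMM, glmQLFit, glmQLFTest, Benjamini-Hochberg over all genes, threshold 0.05) with genotype and the batch term, which matched the deposited p-values with a median absolute log10 ratio of 8.3e-14. Each standard error is the fold change divided by the root of its F statistic. Shares and sums were compared by exact permutation. DESeq2 1.42.0 and limma 3.58.1 were alternatives. Offsets (loess, span 0.5) used the deposited exonic length and the GC content of the longest GENCODE M21 transcript, known for 96.47% of genes and set to the median for the rest. The edgeR batch-term fit was run on simulated counts, with changes larger than that of any carrier here, and the other fits were not. Depth per library, 17489530 to 26403882 counts, leaves low carriers least precise.

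The members, lists and design were chosen with earlier results of these data known. Named in full were the citrate, carnitine, ADP/ATP and phosphate carriers as well as the 5 carriers highest and the 5 lowest in log2 fold change among those of mean CPM 1 or more, and, from each other list, genes among the 4 with the smallest p. Carriers with an unadjusted p under 0.05 outside this rule were given in full after their values were seen. The single values of 1 carrier are not reported here, though it enters the counts and sums. The share of Slc25a22 among glutamate carriers was not computed, since Slc25a18 has no row. Protein sequences are not used here.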

Additional observations from a re-analysis of the deposited data

How the results depend on the processing

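Zero carriers passed over all genes in the alternatives run, with these exceptions: DESeq2 called 2 higher and 2 lower, and an adjusted p under 0.1 gave 1 higher and 0 lower. Over all genes the batch-term fit gave 55 higher and 17 lower. The counts were 844 and 721 with DESeq2, 202 and 123 with length and GC offsets, 0 and 0 with no batch term, 231 and 145 at an adjusted p under 0.1, 64 and 26 with the strict filter, and 39 and 11 in replicates 2 and 3 alone. With a library left out they ran from 0 to 111 higher and 0 to 94 lower, both 0 without knockout replicate 2 and both highest without wild-type replicate 3. The replicate block gave 40 and 17. Same-numbered libraries deviated together for replicates 1 and 2 (r = 0.64 and 0.53) and not for replicate 3 (r = -0.10), so the numbers were not taken as pairs.

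Carriers near 0 changed sign. Slc25a13 was -0.0083 with limma-voom, -0.0099 with the replicate block and -0.36 in replicates 2 and 3 alone. In those replicates Slc25a15 was -0.16, Slc25a42 -0.24, Slc25a45 -0.0371 and Slc25a29 0.14. Slc25a29 was 0.0008 with DESeq2, 0.0001 with RLE size factors and 0.0423 with no batch term. Slc25a51 was 0.0115 with DESeq2, 0.0115 with RLE, 0.29 with the offsets and 0.0398 with no batch term. Slc25a53 was 0.27 with the offsets and 0.14 with no batch term. The offsets also turned Slc25a33 (-0.0251), Slc25a42 (-0.0014), Slc25a45 (-0.0182) and Tspo (-0.16). The Slc25a37 share of the mitoferrins differed by -16.9 percentage points in CPM, against -8.79 per length. With a library left out the ranges were -0.18 to 0.0103 (Slc25a5), -0.36 to 0.30 (Slc25a13), -0.16 to 0.28 (Slc25a15), -0.38 to 0.18 (Slc25a29), -0.12 to 0.0539 (Slc25a35), -0.24 to 0.41 (Slc25a42), -0.0351 to 0.45 (Slc25a45), -0.79 to 0.20 (Slc25a47), -0.0402 to 0.88 (Slc25a48), -0.22 to 0.19 (Slc25a51) and -0.96 to 0.15 (Slc25a53). The causes were not tested. Depth limits Slc25a43 and Slc25a48, which rest on few reads.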
